A study of Mus musculus with 16 samples.

Results

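The genes described here are 42 proliferation and cell cycle genes, chosen by symbol from a list and read from the rows of the deposited count table, which holds 55487 gene IDs. All 42 were found, each as a single Ensembl ID, and each had at least 1 read in each of the 16 libraries. RNA had been sequenced in bulk from mouse skin cells sorted on CD45, the surface marker shared by leukocytes. The immune fraction is CD45+ and the stromal fraction is CD45-. The 4 groups were immune cells of stretched skin, immune cells of control skin, stromal cells of stretched skin and stromal cells of control skin, with 4 libraries each. Stretched skin had been put under hypobaric pressure 6 h before analysis, and the control was unstretched skin of the matching area. All groups share the sort and the library protocol. The labels name no strain, age, sex or animal for a library, so p-values measure the spread between these libraries, which may be technical.

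A dividing cell passes through G1, S phase, G2 and mitosis. D-type cyclins with CDK4 and CDK6, then cyclin E with CDK2, phosphorylate the retinoblastoma proteins and release E2F factors, which switch on the genes of DNA replication. CDK inhibitors such as p21 and p27 hold these kinases back. Genes of G2 and mitosis are held silent in resting cells and are transcribed late in the cycle, so their transcripts are widely used as marks of cycling cells. In adult skin, cycling cells are found in the basal epidermis, in growing hair follicles and among some leukocytes, while most dermal fibroblasts are quiescent. The 42 genes are given by role: 10 G1 cyclins, kinases and factors, 3 CDK inhibitors, 10 genes of DNA replication, 9 mitotic cyclins and kinases, and 10 genes of the chromosome, spindle and division.

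The promoters of several of these genes are shown because the roles differed in which known cell cycle elements they carry. The RefSeq promoter table of build GRCm38.p6 covers 250 bases before to 50 bases after a gene's start, and 34 of the 42 genes had 38 windows in it. *Ccnd1*, *Ccnd2*, *Ccne2*, *Myc*, *Mcm4*, *Ccna2*, *Aurkb* and *Tpx2* had none. The known elements were searched on both strands. The cell cycle genes homology region (CHR), bound by the DREAM complex in resting cells, was taken as TTTGAA or TTCGAA. The CCAAT box, bound by NF-Y, was taken as CCAAT, and the E2F site as TTTCCCGC or TTTGGCGC. None of these letters contains another of the searched motifs. The windows of *Cdk1* (chr10:69352863-69353162, minus strand), *Ube2c* (chr2:164769679-164769978, plus strand), *Cenpa* (chr5:30666636-30666935, plus strand) and *Mcm6* (chr1:128359656-128359955, minus strand) are printed along the gene. The first 3 were higher in immune cells in both kinds of skin, and *Mcm6* was called in neither. Capitals mark the CHR and CCAAT letters in the first 3, and the E2F and CCAAT letters in *Mcm6*, read on either strand.
Cdk1: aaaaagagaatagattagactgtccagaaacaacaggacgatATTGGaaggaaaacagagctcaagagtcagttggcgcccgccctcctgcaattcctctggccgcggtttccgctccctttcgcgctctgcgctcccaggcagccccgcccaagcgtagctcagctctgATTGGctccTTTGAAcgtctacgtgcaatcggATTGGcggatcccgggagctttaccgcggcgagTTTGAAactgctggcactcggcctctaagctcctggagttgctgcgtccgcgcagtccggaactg
Ube2c: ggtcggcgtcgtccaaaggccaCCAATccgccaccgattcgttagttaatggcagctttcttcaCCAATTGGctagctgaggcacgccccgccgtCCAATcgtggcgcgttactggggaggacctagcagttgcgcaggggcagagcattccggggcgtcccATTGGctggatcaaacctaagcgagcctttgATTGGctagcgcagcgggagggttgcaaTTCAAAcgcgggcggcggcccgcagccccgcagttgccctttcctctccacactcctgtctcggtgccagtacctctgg
Cenpa: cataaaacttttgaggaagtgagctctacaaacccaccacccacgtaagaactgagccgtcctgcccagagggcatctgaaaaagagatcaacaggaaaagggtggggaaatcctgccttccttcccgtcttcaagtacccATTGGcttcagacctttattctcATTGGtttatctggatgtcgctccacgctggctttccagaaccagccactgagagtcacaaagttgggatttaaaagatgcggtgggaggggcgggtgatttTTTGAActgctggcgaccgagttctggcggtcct
Mcm6: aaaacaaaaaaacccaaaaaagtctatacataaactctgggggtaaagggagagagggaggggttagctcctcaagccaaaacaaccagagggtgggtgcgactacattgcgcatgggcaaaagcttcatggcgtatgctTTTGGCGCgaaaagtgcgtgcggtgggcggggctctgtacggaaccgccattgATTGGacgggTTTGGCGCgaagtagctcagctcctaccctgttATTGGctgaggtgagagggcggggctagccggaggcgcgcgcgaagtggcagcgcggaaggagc

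*Cdk1* held 2 CHR matches, the first letters of which lie 71 and 15 bases before the start, and 3 CCAAT boxes. *Ube2c* held 1 CHR match, 29 bases before the start, and 6 CCAAT boxes, of which the pair 186 and 183 bases before the start overlap on opposite strands. *Cenpa* held 1 CHR match, 16 bases after the start, and 2 CCAAT boxes. *Mcm6* held no CHR match but had 2 E2F sites, 110 and 47 bases before the start. Over the mitosis and division genes, 13 of 16 windows (81.2%) held a CHR match, against 2 of 10 (20%) for replication genes, 0 of 12 for the G1 genes and inhibitors, and 19.2% of all 32851 windows in the table. The E2F letters had the other distribution, in 4 of 10 replication windows (40%), 0 of 16 mitosis and division windows, and 1.56% of all windows. CCAAT boxes were in 14 of 16 mitosis and division windows and in 9 of 10 replication windows, against 37.4% of all windows. These matches describe letters only.

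The sort was visible in each library. *Ptprc*, which encodes CD45, stood at 206 to 702 CPM (counts scaled to a common library total) in the 8 immune libraries, against 0.0644 to 3.37 CPM in the 8 stromal ones. Totals are scaled with TMM factors over all 16 libraries. The summed CPM of 7 fibroblast markers was 1590 to 10314 in immune libraries, against 41421 to 62724 in stromal ones, so fibroblast transcripts were present in the immune fraction. Summed markers of basal keratinocytes (7 genes) averaged 584 CPM in immune and 572 CPM in stromal controls, and 479 and 887 CPM in stretched skin. Those of lymphatic endothelium (7 genes) averaged 927 and 249 CPM in controls, and 733 and 305 CPM in stretched skin. The part of such cells in the cell cycle values of the immune fraction was not tested. Total counts were 7018743 to 20095580 in immune stretched libraries, 2645421 to 6662268 in immune controls, 21955174 to 26944965 in stromal stretched libraries and 13563586 to 20467010 in stromal controls, so in both fractions depth separates stretched from control without overlap. In each kind of skin, depth also separates immune from stromal libraries without overlap. These 3 libraries stood apart by reads on 1968 olfactory and vomeronasal receptor genes: immune control 4 at 6209 CPM, stromal stretched 7 at 424 CPM and stromal stretched 8 at 208 CPM, against 17.96 to 69.9 CPM elsewhere. Immune stretched 2 had 50102 CPM over 8 neutrophil markers, against 162 to 855 CPM in the other immune stretched libraries. In bulk RNA, fewer cells of a type and less RNA per cell cannot be told apart.

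**Figure D1:**
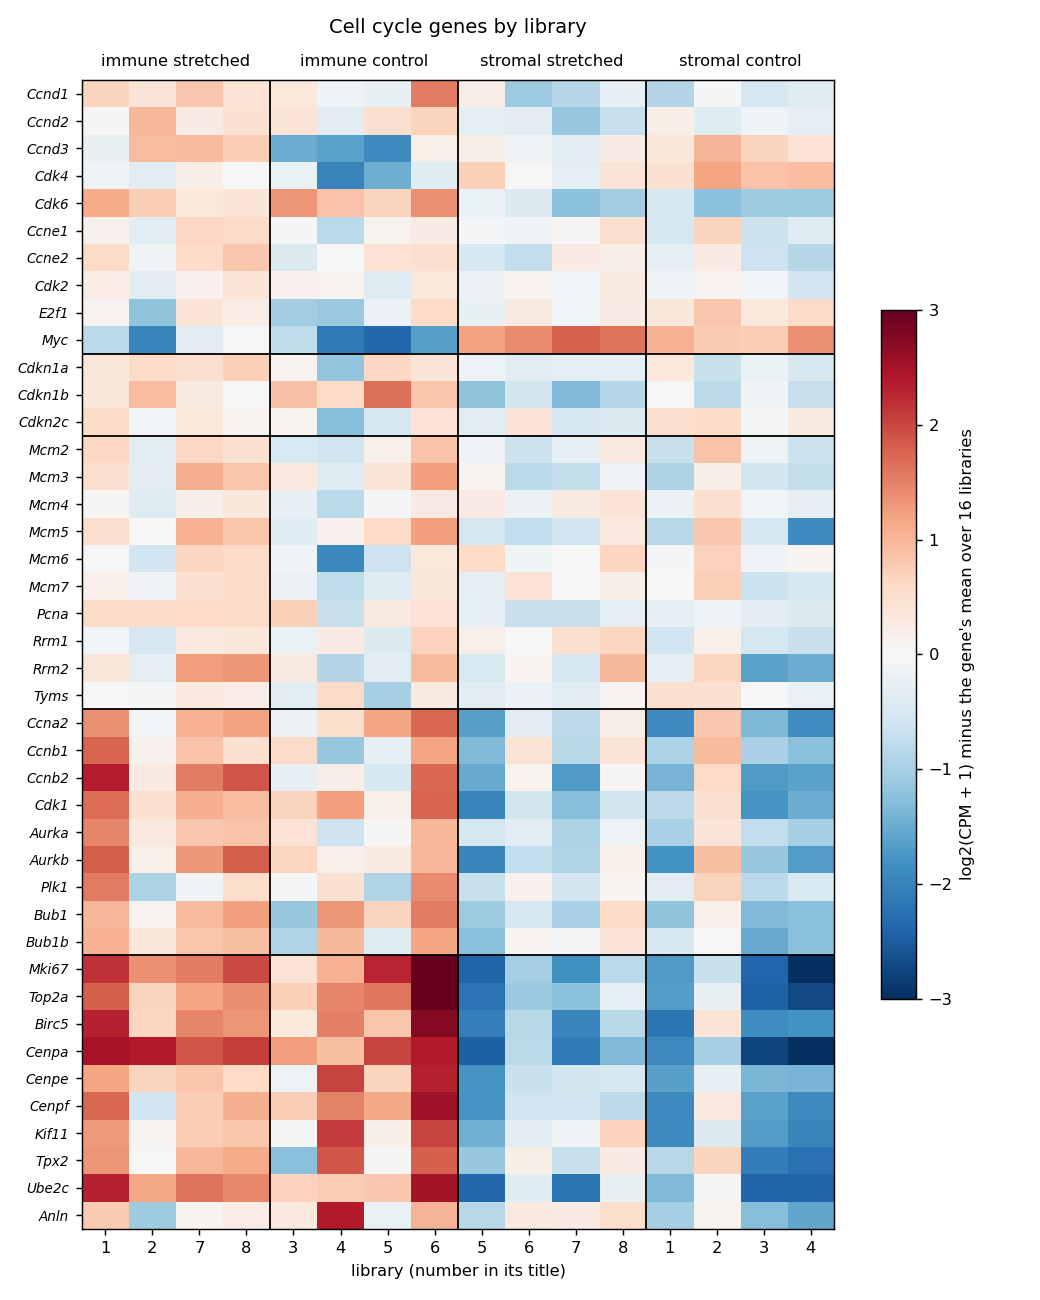
Each gene's log2(CPM + 1) minus its mean over 16 libraries, with genes in rows by role and libraries in columns by group, numbered as in their titles. Mitosis and division genes are mostly red in the 8 immune libraries, with exceptions such as *Bub1* and *Tpx2* in immune control 3 and *Plk1* in immune control 5 and immune stretched 2, and mostly blue in the 8 stromal ones, *Myc* has the opposite pattern, and stromal control 2 and immune control 6 are redder than the other libraries of their groups.

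The 42 genes spanned a wide range of levels. Per kb of annotated exon, *Cdkn1a*, which encodes the CDK inhibitor p21, had the highest median level in both immune groups, at 268 CPM per kb in stretched and 222 CPM per kb in control skin. *Myc*, the growth-promoting transcription factor, was the highest in both stromal groups, at 332 CPM per kb in stretched and 219 CPM per kb in control skin, with *Cdkn1a* next at 153 and 147 CPM per kb. At the other end, *Cenpf* and *Bub1* had medians of 0.121 and 0.142 CPM per kb in stromal stretched libraries and 0.0241 and 0.0304 CPM per kb in stromal controls. At this depth a few values rest on 1 to 3 reads, which is at or under the limit of 3 counts: *Bub1* in stromal controls 1, 3 and 4 and immune control 3, *Plk1* in immune stretched 2 and immune control 5, *Mki67* and *Tpx2* in stromal control 4, and *Cenpf* in stromal control 1.

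Most genes of the chromosome, spindle and division were higher in immune than in stromal cells, while the sum over the G1 genes was lower in each immune library than in each stromal one. The summed level of the 10 G1 genes averaged 845 ± 114 CPM in immune and 1339 ± 85.3 CPM in stromal libraries of stretched skin, and 598 ± 183 CPM in immune and 1229 ± 104 CPM in stromal libraries of control skin (SD, n = 4 each). Much of the stromal sum was *Myc*, so the sum does not describe the other G1 genes. Of the 10 genes, 6 had a positive log2 fold change in each kind of skin. In stretched skin 3 were called higher and 1 lower, and in control skin 2 higher and 3 lower. In stretched skin, 21 of the 42 genes were called higher in the immune fraction (50% of them, against 23.9% of all 17116 tested) and 1, *Myc*, was called lower (25.1% of all tested), by edgeR's quasi-likelihood test with Benjamini-Hochberg adjustment at 0.05. In control skin 14 were called higher (33.3% of them, against 26.6% of 15142 tested) and 3 lower, *Myc*, *Cdk4* and *Ccnd3* (22.8%). The median log2 fold change of immune over stromal was 0.93 over the 42 genes, against -0.06 over all genes, in stretched skin, and 1.10 against 0.08 in control skin. Groups did not overlap for 16 genes that were higher and 1 that was lower in stretched skin, where 26.6% and 21.7% of all genes tested were apart in these directions. In control skin the groups were apart for 9 higher and 3 lower, where the shares of all genes were 21.7% and 26.2%. Over all 42 genes the count of higher genes in control skin was thus near the background, and that of lower genes was under it. The calls shared 13 genes, 59.1% of those called in stretched skin and 76.5% of those called in control skin, and all 13 had the same sign in both.

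**Figure D2:**
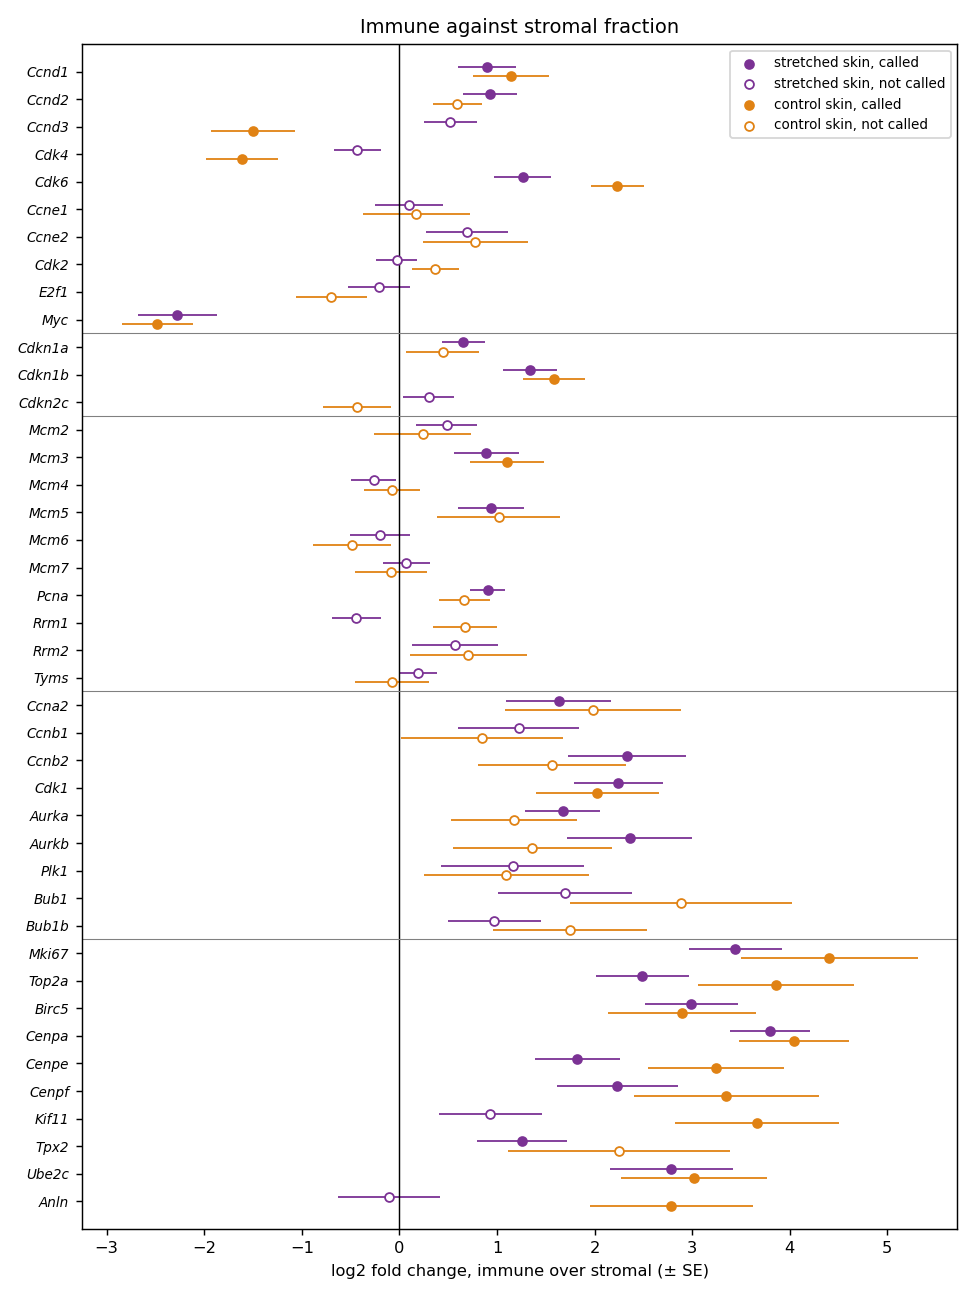
The log2 fold change of immune over stromal (± SE, 4 libraries in each group) for each gene, by role, in stretched skin (purple) and control skin (orange); filled points were called. Most points of the bottom 2 blocks, the mitosis and division genes, lie between 1 and 4, while the replication block lies between -0.49 and 1.10 and *Myc* lies at -2.27 and -2.48.

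The largest differences were in genes of the chromosome, spindle and division. Of these, 8 of 10 were called higher in the immune fraction of stretched skin and 9 of 10 in control skin. The shares of all genes called higher were 23.9% and 26.6%. *Cenpa*, the histone H3 variant that marks centromeres (chr5:30666777-30674830), stood at 135, 126, 89.2 and 102 CPM in immune stretched libraries 1, 2, 7 and 8, against 3.44, 12.95, 4.61 and 8.74 CPM in stromal stretched libraries 5 to 8. Each immune value was more than 6 times the highest stromal one, and the log2 fold change was 3.80 ± 0.41 (SE, adjusted p = 7.62e-05). In controls it stood at 57.7, 45.0, 99.4 and 127 CPM in immune libraries 3 to 6, against 5.55, 11.2, 2.64 and 1.98 CPM in stromal libraries 1 to 4, a log2 fold change of 4.05 ± 0.56 (adjusted p = 0.000198).

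*Mki67*, which encodes the proliferation antigen Ki-67 (chr7:135689784-135716361), was at 44.9, 25.3, 28.6 and 39.4 CPM in immune stretched libraries 1, 2, 7 and 8, against 0.917, 4.05, 1.82 and 4.78 CPM in stromal stretched libraries 5 to 8. In control skin its values were 12.8, 19.9, 48.3 and 90.2 CPM in immune libraries 3 to 6, against 2.13, 5.41, 0.966 and 0.113 CPM in stromal libraries 1 to 4, the last of these from 2 reads. The groups did not overlap in either kind of skin, with log2 fold changes of 3.44 ± 0.48 (adjusted p = 0.000366) in stretched and 4.40 ± 0.91 (adjusted p = 0.00224) in control skin. *Top2a*, which encodes the topoisomerase that untangles replicated DNA, was at 36.1, 15.98, 23.01 and 26.7 CPM in immune stretched libraries, against 1.28, 3.87, 3.52 and 7.76 CPM in stromal stretched libraries. Its controls were at 16.5, 28.5, 30.8 and 86.8 CPM in immune libraries, against 2.36, 8.12, 0.966 and 0.622 CPM in stromal libraries. The immune libraries were again all higher, by a log2 fold change of 2.49 ± 0.48 (adjusted p = 0.00229) in stretched and 3.86 ± 0.80 (adjusted p = 0.00231) in control skin.

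*Birc5*, which encodes survivin of the chromosomal passenger complex, and *Ube2c*, which encodes the ubiquitin-conjugating enzyme that works with the anaphase-promoting complex, were also called in both. *Birc5* stood at 65.6, 19.9, 35.8 and 32.4 CPM in immune stretched libraries, against 2.25, 6.54, 2.40 and 6.51 CPM in stromal stretched libraries (log2 fold change 2.99 ± 0.47). In controls stromal library 2 reached 16.5 CPM and overlapped the lowest immune value of 15.7 CPM. *Ube2c* stood at 49.98, 22.2, 30.8 and 27.3 CPM in immune stretched libraries, against 1.01, 7.08, 1.28 and 7.93 CPM in stromal stretched ones (log2 fold change 2.79 ± 0.63), and its log2 fold change in control skin was 3.02 ± 0.75. *Cenpe* and *Cenpf*, which encode kinetochore proteins, were higher by 1.82 ± 0.43 and 2.23 ± 0.62 on the log2 scale in stretched skin, and by 3.24 ± 0.70 and 3.35 ± 0.94 in control skin.

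The spindle gene *Tpx2* was called in stretched skin (1.26 ± 0.46, adjusted p = 0.0432) and not in control skin (2.25 ± 1.14, adjusted p = 0.122). *Kif11*, the bipolar spindle motor, and *Anln*, the actin-binding anillin of the cleavage furrow, were called in control skin alone. For *Anln* the log2 fold change was -0.11 ± 0.52 (adjusted p = 0.879) in stretched and 2.79 ± 0.84 (adjusted p = 0.0173) in control skin, and for *Kif11* it was 0.93 ± 0.53 (adjusted p = 0.165) and 3.67 ± 0.84 (adjusted p = 0.00414). Immune control 4, the library with many receptor reads, held the highest control value of both, 21.4 CPM of *Anln* and 22.5 CPM of *Kif11*. Without it the *Anln* fold change in control skin was 1.70 with an adjusted p of 0.0700, and that of *Kif11* was 3.10 with an adjusted p of 0.0118.

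Mitotic cyclins and kinases were all positive in both comparisons, though fewer were called: 5 of 9 in stretched skin (55.6%, against 23.9% of all genes) and 1 of 9 in control skin (11.1%, against 26.6%). *Cdk1*, the mitotic kinase, was called in both. It stood at 25.0, 10.2, 16.2 and 14.6 CPM in immune stretched libraries, against 1.10, 4.63, 2.36 and 4.61 CPM in stromal stretched libraries, without overlap (log2 fold change 2.24 ± 0.46, adjusted p = 0.00319). In controls it stood at 12.02, 18.4, 8.14 and 26.3 CPM in immune libraries, against 3.72, 10.4, 1.42 and 1.92 CPM in stromal libraries, where stromal control 2 overlapped immune control 5 (2.03 ± 0.63, adjusted p = 0.0209). The cyclin B gene *Ccnb2*, at 41.3, 8.72, 22.8 and 29.6 CPM in immune stretched libraries against 1.88, 7.83, 1.55 and 7.45 CPM in stromal stretched ones, was called in stretched skin alone (2.33 ± 0.61, adjusted p = 0.0101). So were the Aurora kinase genes *Aurka* (1.67 ± 0.39) and *Aurkb* (2.36 ± 0.64) and the cyclin A gene *Ccna2* (1.63 ± 0.54). *Ccnb1*, *Plk1* and the checkpoint kinase genes *Bub1* and *Bub1b* passed in neither, with log2 fold changes of 0.97 to 1.70 in stretched and 0.85 to 2.89 in control skin.

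Replication genes differed far less between the fractions. Of 10, 3 were called higher in stretched skin (30%) and 1 in control skin (10%), shares near or under those of all genes, and the log2 fold changes lay between -0.44 and 0.94 and between -0.49 and 1.10. *Pcna*, the sliding clamp of DNA polymerases, was at 127, 125, 129 and 128 CPM in immune stretched libraries, against 72.3, 52.5, 53.6 and 69.0 CPM in stromal stretched libraries. The immune values were nearly equal and all above the stromal ones (0.90 ± 0.18, adjusted p = 0.00293, but 0.33 and 0.159 with offsets for length and GC content), while in control skin *Pcna* missed the threshold (0.67 ± 0.26, adjusted p = 0.0537). *Mcm3* and *Mcm5*, which encode subunits of the MCM helicase, were called in stretched skin at 0.89 ± 0.33 and 0.94 ± 0.34, and *Mcm3* in control skin at 1.10 ± 0.38. The helicase genes *Mcm2*, *Mcm4*, *Mcm6* and *Mcm7*, the ribonucleotide reductase genes *Rrm1* and *Rrm2* and the thymidylate synthase gene *Tyms* passed in neither comparison. *Mcm6*, for example, was at 25.8, 17.02, 41.2 and 38.7 CPM in immune stretched libraries, against 39.5, 23.5, 25.4 and 40.7 CPM in stromal stretched libraries.

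**Figure D3:**
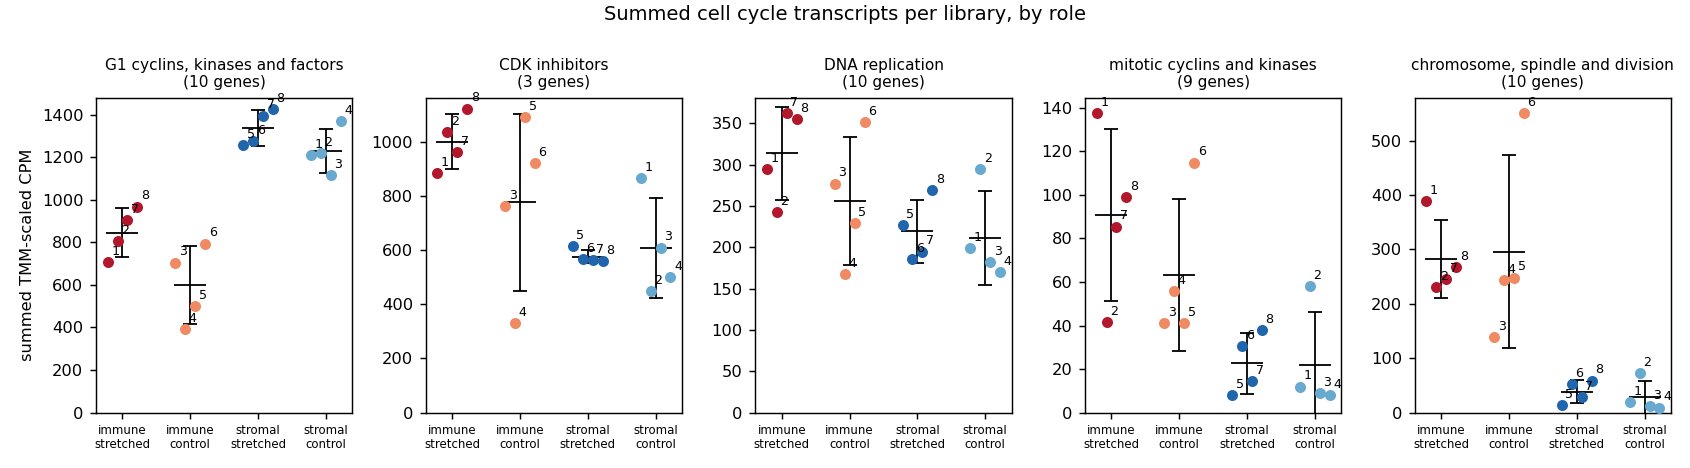
Summed TMM-scaled CPM of the genes of each role in each library (points, numbered as in the titles), with the mean and SD of 4 libraries, from an axis at 0. Mitotic and division sums are higher in immune than in stromal libraries except that immune stretched 2 and immune controls 3, 4 and 5 (40.9 to 56.0 CPM of mitotic cyclins and kinases) fall below stromal control 2 (58.1 CPM). G1 sums are higher in stromal libraries, where *Myc* makes up much of them.

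G1 genes went both ways. *Myc* (chr15:61985391-61990374) stood at 177, 78.1, 251 and 317 CPM in immune stretched libraries, against 727, 842, 1074 and 964 CPM in stromal stretched libraries. In controls it stood at 185, 71.6, 60.4 and 100 CPM in immune libraries, against 651, 539, 523 and 805 CPM in stromal libraries. Each stromal value was above each immune value, with log2 fold changes of -2.27 ± 0.40 (adjusted p = 0.00152) in stretched and -2.48 ± 0.36 (adjusted p = 0.000273) in control skin. The share of *Myc* that fibroblast transcripts bring to the immune libraries was not tested.

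The kinases that bind D-type cyclins differed in sign. *Cdk6* was at 54.1, 41.1, 30.4 and 32.4 CPM in immune stretched libraries, against 21.1, 18.1, 9.88 and 11.2 CPM in stromal stretched libraries, and at 61.9, 44.5, 39.2 and 64.5 CPM in immune controls, against 16.9, 9.65, 11.01 and 11.1 CPM in stromal controls. All immune libraries were higher (1.26 ± 0.29, adjusted p = 0.00592, and 2.23 ± 0.27, adjusted p = 7.64e-05). *Cdk4* was lower in immune cells of control skin, at 98.2, 27.2, 39.7 and 87.3 CPM against 153, 257, 204 and 213 CPM in stromal controls (-1.61 ± 0.37, adjusted p = 0.00412), and did not pass in stretched skin (-0.43 ± 0.24, adjusted p = 0.160). Among the cyclins, *Ccnd1* was higher in immune cells in both comparisons (0.90 ± 0.30 and 1.14 ± 0.39) and *Ccnd2* in stretched skin (0.93 ± 0.27). *Ccnd3* was lower in immune cells of control skin (-1.50 ± 0.43, adjusted p = 0.0133, but -0.91 and 0.0783 with these offsets) and had a positive log2 fold change that did not pass in stretched skin (0.52 ± 0.27, adjusted p = 0.135). *Ccne1*, *Ccne2*, *Cdk2* and *E2f1* passed in neither comparison.

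Among the CDK inhibitors, *Cdkn1b*, which encodes p27, was higher in immune cells, at 22.7, 34.3, 21.4 and 17.7 CPM in immune stretched libraries against 7.11, 11.6, 6.47 and 9.25 CPM in stromal stretched libraries (1.34 ± 0.28, adjusted p = 0.00338). In controls it was at 33.2, 27.2, 57.5 and 32.3 CPM in immune libraries, against 17.9, 9.76, 16.4 and 10.6 CPM in stromal libraries, again without overlap (1.58 ± 0.31, adjusted p = 0.00183). *Cdkn1a* was called in stretched skin alone (0.65 ± 0.22, adjusted p = 0.0310), and *Cdkn2c*, which encodes the CDK4/6 inhibitor p18, in neither.

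Of the 22 calls in stretched skin, 15 held whichever library was left out. Those lost in 1 or more of 8 omissions were *Ccnd1*, *Ccnd2*, *Cdkn1a*, *Mcm3*, *Mcm5*, *Ccna2* and *Tpx2*, with adjusted p up to 0.138. *Ccnd2* was lost without stromal stretched 8 (0.0586), and the others in 4 to 6 omissions each, immune stretched 1 and 7 among them every time. With both stromal stretched libraries that carry receptor reads left out together, 13 of the 22 were called, and 30.4% of all genes in place of 49%. *Cdk6* (adjusted p 0.0639), *Ccnb2* (0.0548) and *Cenpf* (0.0633) were lost from the 15. Of the 17 in control skin 13 held. *Ccnd1*, *Mcm3* and *Cdk1* were lost without immune control 6 (adjusted p 0.174, 0.145 and 0.0690) and in 3 or 4 other omissions, and *Anln* without immune control 4 or stromal control 3. With stromal control 2 left out, 25 genes were called in control skin, with 42.7% of all genes, and the *Cenpf* log2 fold change there was 5.43.

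Stretching changed none of the 42 genes past the threshold in either fraction. In stromal cells 0 of 41 genes tested were called, where 4.98% of 16074 genes were, and *Bub1* was not tested for low counts. In immune cells 0 of 42 were called, and 0 of all 14183 genes (0%), with 2467 genes and 3 of the 42 at an unadjusted p under 0.05. The median log2 fold change over the genes tested was 0.13 in stromal and 0.02 in immune cells, against 0.01 and -0.02 over all genes. For the 10 chromosome, spindle and division genes it was 0.45 in stromal cells (9 positive) and -0.65 in immune cells (8 negative). Medians of the G1, replication and mitotic kinase roles lay between 0.06 and 0.15 in both, and those of the 3 CDK inhibitors at -0.52 and 0.25. Over all roles, groups were apart for 0 genes that were higher and 2 that were lower in stromal cells, where 7.74% and 10.2% of all genes were, and for 0 in either direction in immune cells, where 8.63% and 2.88% were. These p-values do not show that the groups are alike: the SE of single mitotic genes in stromal cells reached 0.92 on the log2 scale.

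**Figure D4:**
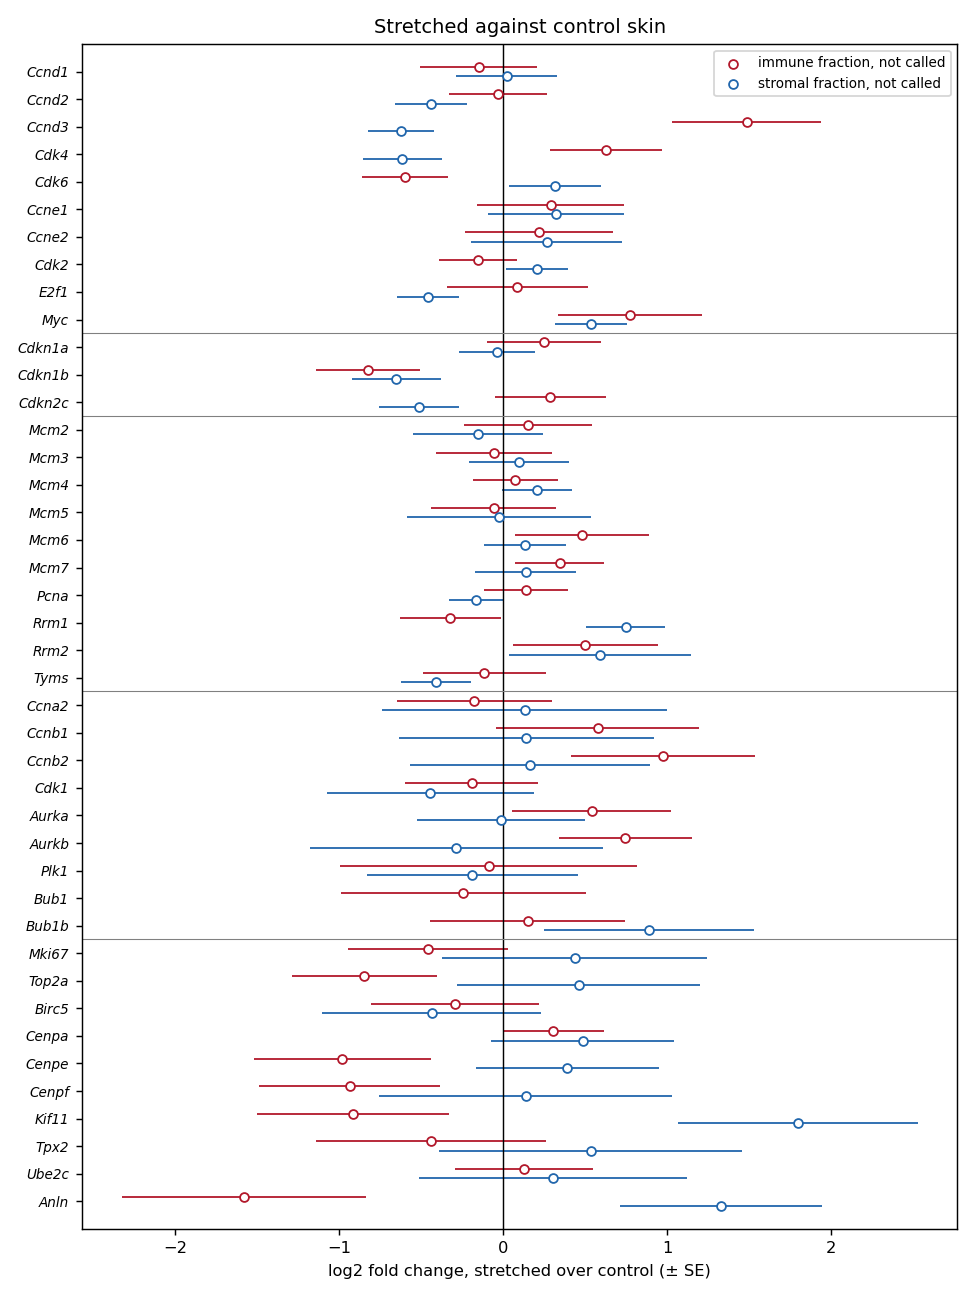
The log2 fold change of stretched over control (± SE, 4 libraries in each group) for each gene, by role, in immune (red) and stromal (blue) cells; open points were not called. No point is filled. *Ccnd3*, *Cdk4*, *Kif11* and *Anln* are among the genes with opposite signs in the 2 fractions. In the bottom block, the chromosome, spindle and division genes, 9 of 10 points are positive in stromal cells and 8 of 10 negative in immune cells.

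In stromal cells 7 genes had an unadjusted p under 0.05 and none passed after adjustment. *Rrm1* had the smallest p, at 24.4, 21.8, 30.7 and 34.7 CPM in stretched libraries 5 to 8, against 14.3, 24.6, 14.998 and 13.3 CPM in control libraries 1 to 4. Stromal control 2 overlapped the stretched libraries, and the log2 fold change was 0.75 ± 0.24 (adjusted p = 0.0838). *Ccnd3* and *E2f1*, the E2F factor that drives S-phase genes, were the 2 whose groups did not overlap. *Ccnd3* (chr17:47505051-47599691) was at 87.7, 69.9, 61.5 and 92.0 CPM in stretched libraries, against 98.8, 157, 123 and 104 CPM in control libraries (-0.62 ± 0.20, adjusted p = 0.0850). *E2f1* was at 18.6, 26.8, 20.6 and 25.9 CPM in stretched libraries, against 28.0, 38.9, 27.5 and 33.1 CPM in control libraries (-0.46 ± 0.19, adjusted p = 0.148).

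*Cdk4* had a log2 fold change of -0.62 ± 0.24 (adjusted p = 0.130), *Cdkn1b* of -0.65 ± 0.27 (adjusted p = 0.154) and *Myc* of 0.53 ± 0.22 (adjusted p = 0.150). *Kif11* stood at 1.01, 3.38, 3.99 and 7.79 CPM in stretched libraries, against 0.456, 3.08, 0.708 and 0.396 CPM in controls, a log2 fold change of 1.80 ± 0.73 (adjusted p = 0.144) that was 0.88 without the libraries with receptor reads. Fold changes of all genes in this comparison followed transcript length (Spearman rho 0.42 across 16071 genes, which are not independent). With offsets for length and GC content 0 of the 41 genes were called, their median log2 fold change was 0.07, and 4 genes were called of all tested in place of 800. The log2 fold change of *Rrm1* was then 0.49 (adjusted p = 0.258) and that of *Ccnd3* -0.85 (adjusted p = 0.0705).

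The mitosis and division genes of stromal control skin rested on 1 library. Stromal control 2 was the highest of its 4 libraries for all 19 of these genes and for 9 of 10 replication genes. The summed CPM of the 19 was 21.8, 82.3, 43.4 and 96.8 in stromal stretched libraries 5 to 8, against 31.8, 131, 20.6 and 17.02 in stromal control libraries 1 to 4. *Ccnb2*, for example, was at 11.4 CPM in stromal control 2 and 1.54 to 2.13 CPM in the other controls. Without stromal control 2, the median log2 fold change of stretched over control over 41 genes was 0.77 in place of 0.13, 14 genes had an unadjusted p under 0.05, and 0 were called (smallest adjusted p 0.102).

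Stromal stretched libraries also differed among themselves. Library 8 was the highest for 12 of the 19 genes, library 6 for 6, and library 5 was the lowest for 17. The summed CPM of 12 hair follicle matrix and shaft markers was 11.01, 68.6, 9.95 and 134 in libraries 5 to 8, against 3.99 to 7.52 in stromal controls. Only 6 of the 12 passed the filter, and 3 of the 6 tested were called higher in stretched skin, as were 2.05% of all genes. Without stromal stretched 7 or 8, 0 of all genes were called. The summed CPM of 7 basal keratinocyte markers was 490, 1264, 772 and 1023 in stretched libraries 5 to 8, against 1278, 507, 442 and 62.7 in control libraries 1 to 4. Stromal control 2 had 6.95 CPM of hair follicle markers. The part of these marker genes' cells in the mitotic values was not tested.

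In immune cells the 6 genes with the smallest p were *Ccnd3*, *Cdkn1b*, *Cdk6*, *Anln*, *Top2a* and *Aurkb*, and none passed. *Ccnd3* was at 65.9, 146, 149 and 128 CPM in stretched libraries 1, 2, 7 and 8, against 26.7, 24.6, 19.98 and 86.3 CPM in control libraries 3 to 6. Immune control 6 stood far above the other controls and above stretched library 1, and the log2 fold change was 1.48 ± 0.46 (adjusted p = 0.186). It was called by DESeq2 and in a fit of all 16 libraries (adjusted p = 0.0420 and 0.0366), which called 5.51% and 3.65% of all genes. *Cdkn1b* was at 22.7, 34.3, 21.4 and 17.7 CPM in stretched libraries, against 33.2, 27.2, 57.5 and 32.3 CPM in controls (-0.83 ± 0.32, adjusted p = 0.235). *Cdk6* had a log2 fold change of -0.60 ± 0.26 (adjusted p = 0.280), *Anln* of -1.58 ± 0.74 (0.299; -0.50 without immune control 4), *Top2a* of -0.85 ± 0.44 (0.339) and *Aurkb* of 0.74 ± 0.41 (0.358).

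Single libraries set much of the immune spread too. Immune control 6 was the highest control for 16 of the 19 mitosis and division genes and 8 of 10 replication genes, with a summed CPM of 666 over the 19, against 180, 300 and 289 in immune controls 3, 4 and 5. *Ube2c* was at 57.1 CPM there and at 15.7 to 17.02 CPM in the other controls. Immune stretched 1 was the highest stretched library for 17 of the 19 genes (526 CPM summed), and immune stretched 2 the lowest for 17 of them (272 CPM) and for all 10 replication genes. Neutrophil markers summed to 50102 CPM in immune stretched 2, and to 463 CPM in immune control 6 against 1561 to 10360 CPM in the other controls, and their part in these values was not tested. Leaving out immune control 6 changed the median log2 fold change of the 42 genes with stretching to 0.27, from a fit in which 0 genes were called.

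The difference between the stretch effects, immune minus stromal, was tested directly in all 16 libraries, and 0 of the 42 genes passed, as for all 18295 genes tested (0%, 4232 at an unadjusted p under 0.05). The closest was *Ccnd3*, with a difference of 2.24 ± 0.55 on the log2 scale (adjusted p = 0.0746): stretched immune libraries were mostly above their controls and all stretched stromal libraries below theirs. It passed with DESeq2, with no filter on low counts and without immune control 6, where 8.88%, 8.84% and 7.62% of all genes were called. *Ccnd3* missed the threshold without the libraries with receptor reads (2.04, adjusted p = 0.418). *Cdk4*, the kinase partner of cyclin D3, differed by 1.39 ± 0.48 (adjusted p = 0.122). *Anln* and *Kif11* differed by -2.61 ± 1.01 and -2.47 ± 1.0005 (adjusted p = 0.150 and 0.161), and *Rrm1* by -0.86 ± 0.41 (adjusted p = 0.221). Without the 3 libraries with receptor reads, the difference was -1.29 for *Anln* and -1.19 for *Kif11*. Of the 10 chromosome, spindle and division genes, 9 had a negative difference (median -0.81), and 0 were called.

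Other genes of the pathway, from 7 lists, gave the setting of these values. Of 54 further mitosis genes tested, 26 were called higher and 0 lower in immune cells of stretched skin (median log2 fold change 1.31), and of 49 in control skin 22 were called higher and 1 lower (median 1.93). *Cks2*, a CDK-binding subunit, was higher by 3.49 ± 0.36 and 2.85 ± 0.42, *Hmgb2*, a chromatin protein, by 2.71 ± 0.31 and 2.42 ± 0.33, and *Kif23*, a cytokinesis motor, by 3.11 ± 0.43 and 4.07 ± 0.79. Of 29 further replication genes 7 were called higher and 0 lower in stretched skin, and 11 higher and 1 lower in control skin. In stretched skin that is 24.1% called higher, near the 23.9% of all genes, and in control skin 37.9% against 26.6%. Among them was *Gmnn*, the licensing inhibitor geminin (3.26 ± 0.33 and 3.17 ± 0.64).

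Lists tied to the control of the cycle differed in the direction of their calls between the fractions. Of all genes, 23.9% were higher and 25.1% lower in stretched skin, and 26.6% and 22.8% in control skin. Of 26 pocket proteins, E2F factors and MYC partners, 9 were higher and 3 lower in immune cells of stretched skin, and 9 of 24 higher and 6 lower in control skin. Among them *E2f2* was higher by 2.96 ± 0.47 and 4.99 ± 0.88, and *Mxd1*, which encodes a MAX partner that opposes MYC, by 4.60 ± 0.94 and 4.67 ± 0.45. Of 16 genes of the anaphase-promoting complex (APC/C) and its regulators, 2 were higher (12.5%) and 7 lower (43.8%) in stretched skin, and 0 higher and 8 lower (50%) in control skin. The APC/C subunit gene *Cdc16* was lower by 1.56 ± 0.31 and 2.66 ± 0.31 on the log2 scale. Of 15 MYC target genes, 1 was higher (6.67%) and 6 lower (40%) in stretched skin, and 2 higher (13.3%) and 7 lower (46.7%) in control skin. Among them *Srm*, which encodes spermidine synthase, was at -1.61 ± 0.44 and -2.69 ± 0.46. Of 13 other CDK inhibitors and kinases, 2 were higher and 3 lower in stretched skin and 1 higher and 3 lower in control skin, with *Cdkn1c*, which encodes p57, at -1.66 ± 0.51 and -3.62 ± 0.28. Of 20 p53 targets and growth arrest genes, 5 were higher and 5 lower in stretched skin, and 4 higher and 5 lower in control skin, shares of 20% to 25% that are near those of all genes.

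With stretching, 11 genes of these lists were called in stromal cells and 0 in immune cells. Over the 7 lists together, the stromal share was close to the 4.98% of all genes. The calls were 4 of 20 p53 targets and growth arrest genes and 3 of 16 of the APC/C and its regulators. The others were 1 of 29 further replication genes, 1 of 54 further mitosis genes, 1 of 24 pocket proteins, E2F and MYC partners, and 1 of 13 other CDK inhibitors and kinases. Of 20 p53 targets and growth arrest genes, 4 rose and 0 fell in stromal cells, where 2.05% of all genes rose and 2.93% fell: *Plk3* (1.17 ± 0.18), *Plk2* (1.05 ± 0.21), *Mdm2* (0.80 ± 0.17) and *Sesn2* (0.97 ± 0.25), with adjusted p of 0.0424 to 0.0493. *Mdm2* encodes the ubiquitin ligase that limits p53, and *Plk2* and *Plk3* encode stress-responsive polo-like kinases. *Plk3* averaged 91.2 CPM in stretched stromal libraries and 40.8 CPM in controls. *Mxd1* also rose (0.995 ± 0.190). The genes that fell were *Anapc13*, *Cdc26* and *Anapc11*, which encode APC/C subunits (-1.29 ± 0.26, -0.73 ± 0.17 and -0.77 ± 0.20), *Cks1b*, a CDK-binding subunit (-1.11 ± 0.22), *Rfc3* of the clamp loader (-0.76 ± 0.19) and *Mnat1* of the CDK-activating kinase (-0.72 ± 0.18). In stromal cells 0 of 15 MYC target genes passed. Each of the 11 calls was lost in 6 to 8 of the 8 single omissions, among them stromal controls 1, 2 and 3 and stromal stretched 6, 7 and 8, with unchanged signs and adjusted p of up to 0.160. None of the 11 passed with offsets for length and GC content (adjusted p of 0.0702 to 0.154) or in 1 fit of all 16 libraries (adjusted p of 0.127 to 0.518), again with unchanged signs.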

How the data were processed

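The measurements are raw read counts per Ensembl gene in 16 libraries, in the table deposited by the authors. Per the labels' protocols, Nextera XT libraries were built on cDNA of the SMART-Seq mRNA LP kit, and per the submitters' processing notes FastQC 0.11.9 and STAR (version not given) were used with build mm10. No source used here gives the counter, its strand setting, its annotation or its handling of multi-mapped reads, so overlapping and antisense genes cannot be told apart. Symbols, lengths and coordinates came from GENCODE M21 (GRCm38), which matched 55394 of 55487 IDs. Where IDs had a symbol in common (107 symbols), the most-read ID took it, and 0 columns were left without a sample.

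Groups follow the title and the treatment in the labels. Each comparison was fitted on all genes with edgeR 4.0.16 (R 4.3.3): filterByExpr (minimum count 10, minimum total 15), TMM factors, estimateDisp, and the quasi-likelihood F test with Benjamini-Hochberg adjustment over all genes tested, called at 0.05, with no covariate. SEs were derived from the F statistic. CPM uses TMM factors over all 16 libraries. The limit set by low counts was 3 counts. It covers counting error only, since PCR copies cannot be told from separate molecules. Levels per kb use the union of annotated exons. Within groups, pairs of libraries were compared by a chi-square test of their counts (25.1 to 247 for each degree of freedom), and each library counts as 1 sample.

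The members and the lists were chosen with earlier results of these data known. Genes called in a comparison were named, at most 12 with values by library. With fewer than 3 calls, the 6 genes of lowest p were named, as not passing. From each pathway list up to 4 genes were named. Alternatives were RLE factors, no filter, a stricter filter (50 reads in 4 libraries), DESeq2 1.42.0, 1 fit of all libraries, a replicate block, offsets for length and GC content, thinning, and omission of libraries. The scripts were tested on simulated data. Figures and motif searches used Python 3.11.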

Additional observations from a re-analysis of the deposited data

Results flagged for a closer look

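Each value was compared with the other 3 libraries of its group, and a value was listed where its gap to the nearest of them took up more of the range of all 4 than Dixon's 95% critical value. Of 168 pairs of a gene and a group, 17 passed, where chance alone would pass about 1 in 20 if values were normally distributed. The CPM were not log-transformed and all 17 were high values, so that rate need not hold here. Stromal control 2 held 12 of them, all high: *Ccne1* at 5.94 CPM (others 1.80 to 2.32), *Rrm1* at 24.6 CPM (13.3 to 14.998), *Ccna2* at 8.54 CPM (0.456 to 1.16), *Ccnb1* at 6.95 CPM (0.735 to 1.14), *Ccnb2* at 11.4 CPM (1.54 to 2.13) and *Aurka* at 4.08 CPM (0.961 to 1.35). The remaining values in that library were *Aurkb* at 8.91 CPM, *Bub1* at 1.96 CPM, *Birc5* at 16.5 CPM, *Cenpe* at 3.98 CPM, *Cenpf* at 4.67 CPM and *Kif11* at 3.08 CPM. Immune control 6 was high for *Ccnd3* at 86.3 CPM (others 19.98 to 26.7), *Ccnb2* at 26.4 CPM (4.93 to 8.43) and *Ube2c* at 57.1 CPM (15.7 to 17.02). Stromal stretched 6 was high for *Cdkn2c* at 20.4 CPM (10.7 to 12.2) and stromal stretched 8 for *Mcm5* at 10.3 CPM (4.54 to 5.50).

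Sums over a role were listed in 4 of 28 pairs of a list and a group. Stromal control 2 had 58.1 CPM over the mitotic cyclins and kinases (others 8.03 to 11.9) and 73.1 CPM over the chromosome, spindle and division genes (8.99 to 19.8). Immune control 6 had 1017 CPM over the 29 genes of replication, mitosis and division (457 to 518), and stromal stretched 5 had 613 CPM over the CDK inhibitors (559 to 566). These genes belong to the same libraries and are not independent. The cause was not tested.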

How the results depend on the processing

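The counts of called genes depended little on scaling and more on the test and the libraries. In stromal stretching the count of 0 became 1 with no filter (*Kif11*) and 1 with DESeq2 (*Rrm1*), which called 5.16% and 14.4% of all genes. In immune stretching 0 became 1 with DESeq2 and 1 with all 16 libraries in 1 fit, both *Ccnd3*. Of all genes, 5.51% and 3.65% were called there. For the difference of the effects 0 became 1 with no filter and 1 with DESeq2, and single omissions gave 0 to 1 (*Ccnd3*, without immune control 6). The shares of all genes called were 8.84% with no filter, 8.88% with DESeq2 and 7.62% without immune control 6. Between the fractions, single omissions gave 16 to 23 genes in stretched skin and 13 to 25 in control skin. They called 40.1% to 46% and 42.4% to 53% of all genes, against 49% and 49.4% with no library left out. The labels do not say whether the title number links immune and stromal libraries, and it was not used to pair them. Deviations of same-numbered libraries correlated at -0.07 to 0.21. These correlations cannot tell whether such libraries share an animal, since cells of 1 animal need not vary together and other pairs were not compared. Stretched and control libraries of a fraction share no number. With the number as a replicate block, 12 genes were called in stretched skin in place of 22, and 21 in control skin in place of 17. The shares of all genes called were then 26.1% in place of 49%, and 39.4% in place of 49.4%. Alternatives were run for 197 gene values, of the genes called and the genes of smallest p in each list, and 5 of these turned sign, each under that replicate block: *Aurkb* (-0.66) with stretching in immune cells, *Nop56* (-0.15), *Gnl3* (-0.14) and *Pkmyt1* (-0.50) in stromal cells, and *Ddx21* (0.18) in the difference. Over all genes, the 800 calls in stromal stretching were 0 to 2312 under the alternatives, 0 of them without stromal control 1, 2 or 3 or stromal stretched 7 or 8, and 4 with offsets for length and GC content. RLE factors moved the median of all genes in the difference to -0.19 from 0.03. Chosen after the data were seen were the omission of immune control 4 with immune stretched 2, and of immune control 6 with stromal control 2. Each gave 18 genes in control skin, where 53% and 35.4% of all genes were called. Thinned to the shallowest library, 22 genes were called in control skin, of 35 tested, along with 52.1% of all genes.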
